A study of Mus musculus with 8 samples.

Results

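Transcripts of the autophagy machinery were followed in butyrate-treated mouse colonic epithelial cells. The group took in every gene whose symbol in the platform annotation starts with Atg and a digit, together with 24 further named genes of the pathway, from the Ulk1 and Becn1 complexes to the receptor Sqstm1 and the transcription factor Tfeb. Of the 12393 genes that a probe set named singly, 35 met this rule, through 65 of the 22690 probe sets, and each gene was read from its probe set with the highest mean over the 8 arrays. Optn, Tfe3 and Epg5 had no probe set of that single name. Of the 35 genes, 34 passed the filter on low signals and were tested, among 7340 genes in all. Atg10, the E2-like enzyme of the Atg12 conjugation step, did not pass, and its signals ran from 46.5 to 127.2.

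The cells were MCE301, a colonic epithelial line from mice that carry a temperature-sensitive SV40 large T-antigen transgene, so every group shares that oncoprotein. They received sodium butyrate at 2 mM, a bacterial fermentation product that inhibits histone deacetylases, for 0, 6, 12 or 24 h, and total RNA was hybridised to Affymetrix Mouse Expression Array 430A chips, 2 arrays per time. Whether the arrays of a pair stem from separate cultures is not stated in the labels, and p-values therefore reflect the spread between these arrays alone, possibly a technical one. Untreated cells at 6, 12 or 24 h were not analysed here, so butyrate cannot be told apart from time in culture.

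Autophagy encloses cytoplasm in a growing membrane sac that closes into an autophagosome and fuses with a lysosome, where the contents are broken down. The ULK1 kinase complex starts the process, a class III phosphatidylinositol 3-kinase marks the membrane, Atg9 vesicles and the lipid transfer proteins Atg2a and Atg2b supply lipid, and 2 ubiquitin-like conjugation steps attach LC3 and GABARAP proteins to the membrane, where they hold cargo receptors such as Sqstm1. In the gut, epithelial autophagy is known for its part in handling microbes and in Paneth and goblet cell secretion, and a variant of ATG16L1 is a known risk factor for Crohn's disease. Many of these genes are known targets of Tfeb and its relatives, which bind an E-box with the core CACGTG.

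To show that element in its sequence, the promoter windows of the members that hold CACGTG are printed 5′ to 3′ on the gene's strand, each from 250 bases before to 50 bases after a RefSeq transcription start (build GRCm38.p6), with the core in capitals.
Atg3 (chr16:45158579-45158878, plus strand): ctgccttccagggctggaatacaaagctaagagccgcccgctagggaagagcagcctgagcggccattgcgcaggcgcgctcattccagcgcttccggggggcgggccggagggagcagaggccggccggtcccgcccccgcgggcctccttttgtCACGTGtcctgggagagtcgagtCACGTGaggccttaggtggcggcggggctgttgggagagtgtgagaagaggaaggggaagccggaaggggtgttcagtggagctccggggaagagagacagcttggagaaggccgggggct
Atg7 (chr6:114670846-114671145, plus strand): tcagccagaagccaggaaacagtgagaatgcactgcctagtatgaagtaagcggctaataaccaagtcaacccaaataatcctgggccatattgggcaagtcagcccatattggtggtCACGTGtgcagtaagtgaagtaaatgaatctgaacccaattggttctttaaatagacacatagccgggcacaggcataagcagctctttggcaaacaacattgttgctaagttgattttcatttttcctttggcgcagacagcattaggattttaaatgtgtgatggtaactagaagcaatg
Atg14 (chr14:47568385-47568684, minus strand): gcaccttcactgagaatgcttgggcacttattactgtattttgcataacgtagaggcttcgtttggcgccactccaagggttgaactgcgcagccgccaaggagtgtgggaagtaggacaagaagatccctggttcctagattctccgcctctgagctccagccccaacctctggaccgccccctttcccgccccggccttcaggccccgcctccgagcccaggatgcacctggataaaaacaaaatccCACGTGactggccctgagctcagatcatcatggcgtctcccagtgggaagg
Atg5 (chr10:44268089-44268388, plus strand): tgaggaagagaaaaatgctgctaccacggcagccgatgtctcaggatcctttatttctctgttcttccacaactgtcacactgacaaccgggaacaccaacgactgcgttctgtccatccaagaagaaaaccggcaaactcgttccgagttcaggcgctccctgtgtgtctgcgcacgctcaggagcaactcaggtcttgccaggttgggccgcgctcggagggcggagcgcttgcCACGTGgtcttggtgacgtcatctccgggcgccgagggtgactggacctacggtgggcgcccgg
In Atg3 the core occurs 2 times, the first starting 94 bases before the transcription start, in Atg7 it starts 132 bases before, in Atg5 14 bases before and in Atg14 1 base before. RefSeq windows matched 29 of the 35 members (35 windows); Atg12, Atg16l1, Becn1, Map1lc3a, Pik3c3 and Rb1cc1 were not matched. Both strands were searched for each motif. The 7-letter form TCACGTG, which overlaps CACGTG by construction, was found in 3 of 29 members (10.3%; Atg3, Atg7 and Atg14), against 4.29% of all 27025 genes with a window, and the 6-letter core in 4 of 29 (13.8%) against 8.09%. All 3 members with TCACGTG were among the 16 of these 29 that were called higher at 24 h, as described below. The 6-letter core was found in 3 of those 16 and in 1 of the 13 others. Counts this small do not set the 16 apart from the 13. The FOXO-like letters GTAAACA and the AP-1 letters TGANTCA were found in none of the 29, against 4.05% and 8.97% of all genes. The GC box GGGCGG was found in 19 of 29 (65.5%), in 10 of those 16 and in 9 of the 13 others, against 38.2% of all genes. The members' windows had a median GC content of 60.3% against 52.7% over all 32851 windows. A match is a description of the letters and not a measured binding site.

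All arrays had the same trimmed mean signal of 500.2, medians of 140.1 to 152.8, and 3′ to 5′ signal ratios of 0.767 to 0.878 for Gapdh and 1.01 to 1.12 for Actb. The 2 arrays of a time correlated at 0.979 to 0.982 over all probe sets. Between them, the median absolute log2 gap was 0.155 to 0.184 over the tested autophagy genes and 0.176 to 0.21 over all genes. The widest gaps among the autophagy genes were those of Atg12 at 0 h (0.76), Atg14 at 6 h (0.65), Atg7 at 12 h (0.59) and Tfeb at 24 h (1.08). Of the epithelial markers, 10 of 15 passed the filter, Epcam and Krt8 among them, while Vil1 stayed between 2.8 and 40.7 and Cdx1 between 2.7 and 7. The summed signal of the 15 was 59831 to 65801 at 0 h, 63021 to 74044 at 6 h, 79534 to 88532 at 12 h and 93924 to 113230 at 24 h. The markers within it did not move alike: the mean signal of Krt20 was 1377 at 0 h and 15290 at 24 h, that of Cdx2 484.8 and 284.3, and that of Car2 4963 and 3824. Fibroblast markers passed in 1 of 9 genes (Vim, whose mean signal was 7.5 at 0 h and 316.1 at 24 h), and their sum was 311.2 to 418.4 at 0 h and 661.7 to 704.1 at 24 h. Immune markers passed in 2 of 6 genes (Cd68 and Csf1r, with Ptprc at 14.9 to 109.4), and their sum was 1161 to 1475.9 at 0 h, 1010.9 to 1104.3 at 6 h, 933.1 to 1041.1 at 12 h and 1492.7 to 1496.6 at 24 h. From 0 h to 24 h the mean of Cd68 went from 424.4 to 1080 and that of Csf1r from 733.7 to 231.2. Endothelial markers (0 of 5) and markers of goblet, enteroendocrine and Paneth cells (0 of 7) did not pass. The part of these marker shifts in the results below was not tested, and in RNA from a whole culture fewer cells of a kind and less RNA per cell cannot be told apart.

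At 24 h 18 of the 34 tested autophagy genes were called higher than in untreated cells, Atg12, Gabarapl2 and Map1lc3a among them, and Atg9b was lower. Each step from the ULK1 complex to the receptors held some of the 18. With 24.6% of all genes called higher, that alone is no result about a step. A gene is called where the limma p-value, adjusted by Benjamini-Hochberg over the 7340 genes, was under 0.05, and log2 changes are differences of mean log2(signal + 32), a scale that understates the change of low signals. At 6 h 5 of the 34 tested genes were called higher, against 9.06% of all genes, and 1 was called lower, against 6.68%. At 12 h 12 were called higher (background 18.1%) and 1 lower (17.5%). At 24 h 18 were called higher (24.6%) and 1 lower (23.5%), and 9 of the 18 were higher by at least 2-fold (9.25%). The median log2 change of the tested members was 0.28 at 6 h, 0.30 at 12 h and 0.51 at 24 h, while the median over all genes was 0.01, 0.03 and 0.04. Log2 changes above 0 were found in 28, 28 and 29 of the 34, against 51.4%, 52% and 52.4% of all genes. Both treated arrays exceeded both 0 h arrays in 19 members at 6 h (background 30.1%), 21 at 12 h (36.7%) and 26 at 24 h (39%). With 0 h replicate 2 left out, 1 member was called higher at 6 h and 12 were at 24 h, and with 6 h replicate 1 left out, 3 were at 6 h. All 3 comparisons share the 0 h arrays. Among the tested members Atg13, Atg2a and Atg2b had 1 of the 0 h arrays above the filter's level, and the other 31 had both. Those with 1 passed through treated arrays, so the filter partly fixed their direction. Atg2a is counted in the 18 and in the 9 above.

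**Figure D1:**
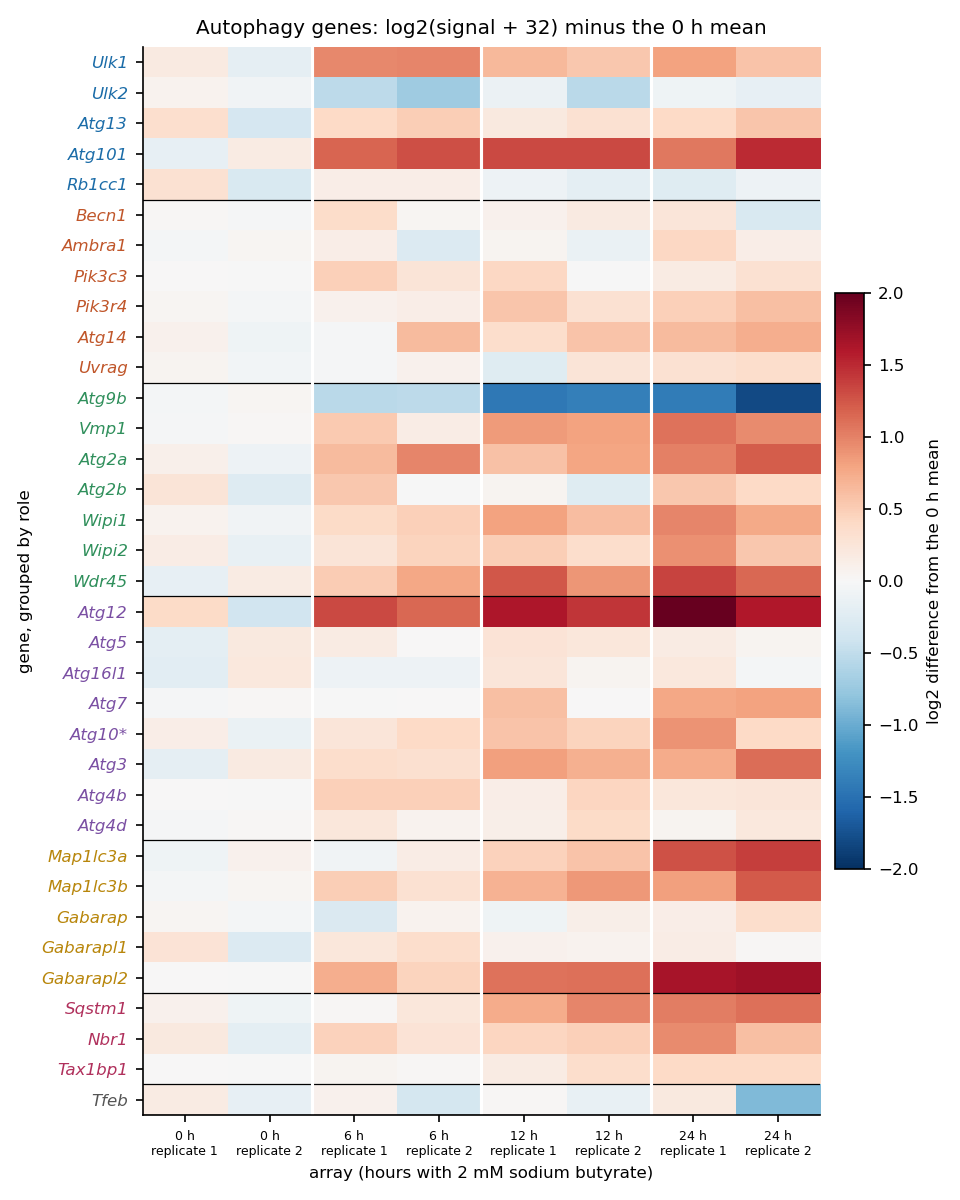
Each row is an autophagy gene, grouped by role from the ULK1 complex at the top to Tfeb at the bottom, each column is 1 array, and colour gives log2(signal + 32) minus the gene's mean over the 2 arrays at 0 h. Red deepens from 6 h to 24 h in rows such as Gabarapl2 and Atg12, though for Atg12 the difference between these times was not called. Atg9b is blue at every treated time, and Atg10, marked with an asterisk, did not pass the filter.

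In the ULK1 complex, which starts autophagosome formation, Ulk1 and Atg101 were called higher at all 3 times and Ulk2 lower at 6 h. Atg13 and Rb1cc1 were not called. A further probe set of Ulk1, given below, was called at no time. At 24 h 2 of 5 members were higher, against 24.6% of all genes, a count too small to set the complex apart from them. Atg101, the subunit that stabilises Atg13, had signals of 380.9 and 485.4 at 0 h, 1005.6 and 1103.3 at 6 h, 1118.0 and 1123.0 at 12 h, and 927.4 and 1265.3 at 24 h. Every treated array lay above both 0 h arrays, and the 24 h arrays lay on both sides of those at 6 h. Its log2 change was 1.23 at 6 h (adjusted p = 0.00267), 1.32 at 12 h (adjusted p = 0.00062) and 1.27 ± 0.19 (SE) at 24 h (adjusted p = 0.00041). Ulk1, the kinase, gave 442.5 and 338.2 at 0 h, 788.1 and 792.7 at 6 h, 625.2 and 579.6 at 12 h, and 702.9 and 590.0 at 24 h. Its highest arrays were those at 6 h, and no treated array overlapped the untreated ones. The log2 change of Ulk1 was 0.97 at 6 h (adjusted p = 0.00551), 0.60 at 12 h (adjusted p = 0.0226) and 0.69 ± 0.17 at 24 h (adjusted p = 0.00832). Its paralog Ulk2 went the other way, with 318.4 and 288.5 at 0 h, 202.3 and 173.7 at 6 h, 277.8 and 198.7 at 12 h, and 282.6 and 267.0 at 24 h. All 6 treated arrays of Ulk2 lay below both untreated ones. Only the 6 h change of Ulk2 was called, at -0.61 (adjusted p = 0.0449), and at 12 and 24 h the changes were -0.33 and -0.13. Without 0 h replicate 2 the Ulk1 changes had adjusted p of 0.051, 0.168 and 0.0768 at 6, 12 and 24 h. At 12 h the Ulk1 call was also lost without either 12 h array (adjusted p = 0.106 and 0.0649), and at 24 h without 24 h replicate 1 (0.0646). The Ulk2 call was lost when either 0 h, 6 h or 24 h array was left out (adjusted p from 0.0604 to 0.199). Atg13, the regulatory subunit, changed by 0.47 at 24 h (95% interval 0.00 to 0.95), and it was called there without 0 h replicate 1, whose signal of 223.7 exceeded the 126.9 of the other untreated array (0.82, adjusted p = 0.0119). Without that array Atg13 was also called at 6 h (0.78, adjusted p = 0.0483). Rb1cc1, which encodes the scaffold FIP200, changed by -0.17 (-0.62 to 0.28).

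In the class III phosphatidylinositol 3-kinase complexes, 2 of 6 members were called, both higher and at 24 h alone, when 24.6% of all genes were called higher. A count this small does not set these complexes apart from all genes. These were Pik3r4, which encodes the regulatory subunit VPS15, and Atg14, the subunit that directs the kinase to autophagy. Pik3r4 gave 291.8 and 277.7 at 0 h, 305.6 and 313.9 at 6 h, 435.6 and 357.1 at 12 h, and 408.3 and 449.0 at 24 h. For Atg14 the signals were 173.2 and 149.0 at 0 h, 158.1 and 265.8 at 6 h, 214.4 and 253.1 at 12 h, and 265.5 and 285.6 at 24 h. Both genes were above both untreated arrays at 12 and 24 h, and 1 of the 6 h arrays of Atg14 lay between its untreated arrays. The log2 change at 24 h was 0.54 ± 0.16 for Pik3r4 (adjusted p = 0.0179) and 0.67 ± 0.21 for Atg14 (adjusted p = 0.0241). Pik3r4 was also called at 12 h with the replicate block (0.43, adjusted p = 0.0409) and with a stricter filter (0.0452). At 24 h both calls depended on the arrays kept: Pik3r4 had adjusted p of 0.0569 without 0 h replicate 1, 0.0838 without 0 h replicate 2 and 0.0936 without 24 h replicate 2. Leaving out either 0 h or either 24 h array gave Atg14 adjusted p of 0.0559 to 0.126. The catalytic subunit Pik3c3 changed by 0.24 at 24 h (95% interval -0.16 to 0.64), and the core subunit Becn1 by -0.03 (-0.48 to 0.42). Ambra1, a Becn1 partner, changed by 0.27 (-0.14 to 0.68) and Uvrag, which replaces Atg14 in the endosomal complex, by 0.33 (-0.08 to 0.73). In limma, 0 of the 6 had an unadjusted p under 0.05 at 6 h, and 1, Pik3r4, had one at 12 h.

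The genes of membrane supply, lipid transfer and phosphoinositide binding held the member that fell most. Of the 7, 5 were called higher and 1 lower at 24 h (24.6% and 23.5% of all genes). At 12 h 4 were called higher and 1 lower (18.1% and 17.5% of all genes). Atg9b, a membrane protein of the vesicles that seed the sac, had signals of 1263.8 and 1335.3 at 0 h, 882.8 and 898.6 at 6 h, 462.7 and 482.1 at 12 h, and 471.1 and 348.6 at 24 h. Each treated array lay below both untreated arrays, and the 12 and 24 h arrays lay below those at 6 h. Its log2 change was -0.53 at 6 h (adjusted p = 0.0629), -1.40 at 12 h (adjusted p = 0.000262) and -1.60 ± 0.17 at 24 h (adjusted p = 4.90e-05), which is 3.04-fold lower at 24 h. The 6 h change was called without either 24 h array (adjusted p = 0.0499), with the replicate number as a block (0.0438), with a stricter filter (0.0456) and with trend and robust eBayes (0.0472).

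Vmp1, an endoplasmic reticulum scramblase needed for the sac to form, gave 1597.4 and 1669.4 at 0 h, 2350.9 and 1810.5 at 6 h, 2967.6 and 2867.6 at 12 h, and 3515.8 and 3189.1 at 24 h. Wdr45, a phosphoinositide-binding WIPI protein, gave 576.3 and 731.9, then 935.3 and 1128.0, then 1573.7 and 1231.0, and last 1713.3 and 1474.3 at those times. The arrays of both genes at 6, 12 and 24 h were all above their untreated arrays. Vmp1 changed by 0.33 at 6 h (not called), 0.82 at 12 h (adjusted p = 0.00432) and 1.02 ± 0.17 at 24 h (adjusted p = 0.000786). Wdr45 missed the threshold at 6 h (0.64, adjusted p = 0.0501; 0.0418 with the replicate block) and rose by 1.06 at 12 h (adjusted p = 0.00222) and 1.25 ± 0.19 at 24 h (adjusted p = 0.000509). The lipid transfer protein Atg2a gave 145.2 and 121.7 at 0 h, 223.1 and 292.1 at 6 h, 216.9 and 253.8 at 12 h, and 301.0 and 351.9 at 24 h. Its treated arrays did not overlap the untreated ones, which lay near the filter's level of 144.7. Only 1 untreated array was above that level, so Atg2a passed through treated arrays and the filter partly fixed its direction. Atg2a rose by 0.80 at 6 h (adjusted p = 0.0159), 0.69 at 12 h (adjusted p = 0.0136) and 1.12 ± 0.18 at 24 h (adjusted p = 0.000677). Atg2a was no longer called at 6 h with 0 h replicate 2 left out (adjusted p = 0.102) or 6 h replicate 2 left out (0.0927), nor at 12 h with 0 h replicate 2 (0.0923) or 12 h replicate 2 (0.0896) left out. Its paralog Atg2b changed by 0.47 at 24 h (95% interval -0.04 to 0.98) and was called there with the replicate block (adjusted p = 0.026).

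Wipi1 and Wipi2, which bind phosphatidylinositol 3-phosphate on the forming membrane, were both called at 24 h. Wipi1 gave 489.4 and 439.5 at 0 h, 616.4 and 654.7 at 6 h, 835.3 and 732.2 at 12 h, and 948.4 and 804.1 at 24 h. Wipi2, the member that recruits Atg16l1, gave 820.8 and 661.5 at 0 h, 887.3 and 1011.3 at 6 h, 1054.3 and 944.8 at 12 h, and 1415.6 and 1089.6 at 24 h. In both, all treated arrays were above both untreated arrays. Wipi1 rose by 0.72 at 12 h (adjusted p = 0.00717) and 0.87 ± 0.16 at 24 h (adjusted p = 0.00159), and Wipi2 by 0.73 ± 0.19 at 24 h (adjusted p = 0.00864). Wipi1 was no longer called at 12 h when 0 h replicate 2 (adjusted p = 0.0521) or 12 h replicate 1 (0.0532) was omitted, nor Wipi2 at 24 h when 0 h replicate 2 (0.0742) or 24 h replicate 1 (0.0765) was omitted.

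**Figure D2:**
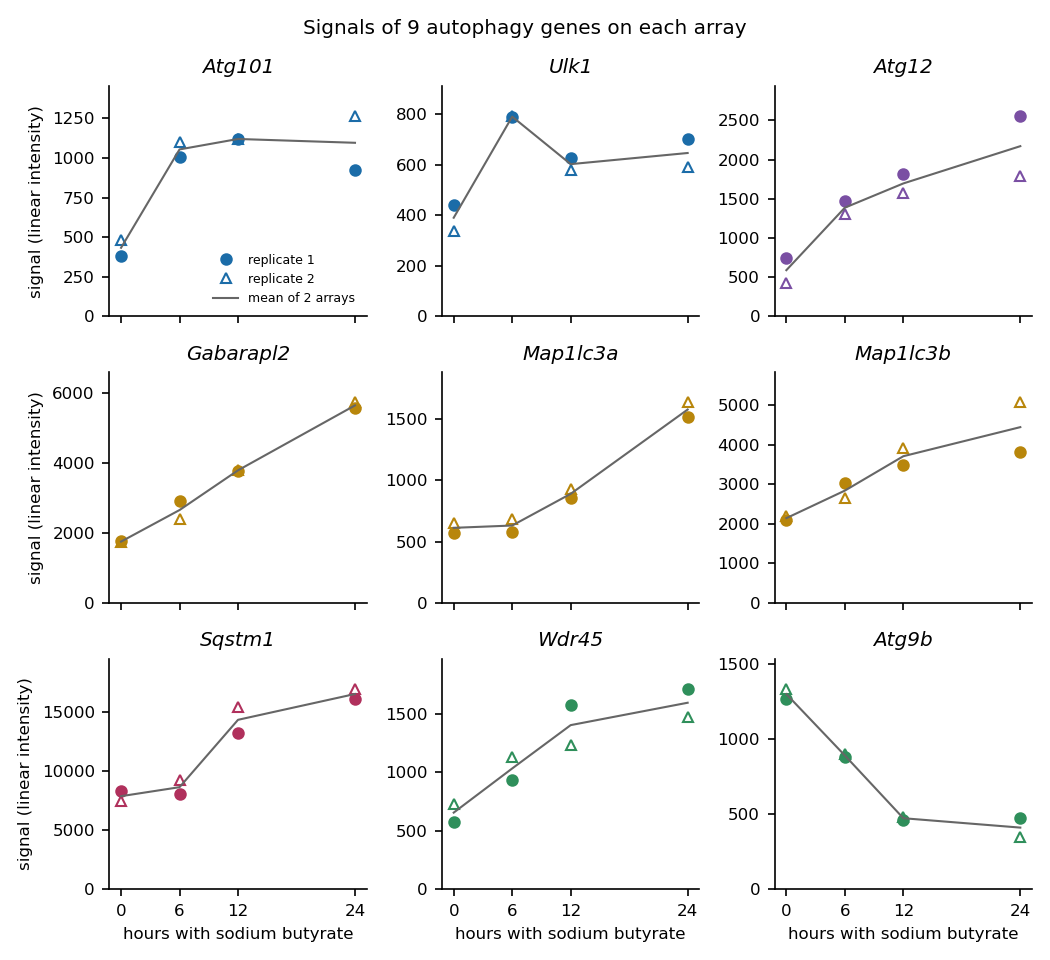
Signal (linear intensity, axis from 0) against hours with sodium butyrate for 9 autophagy genes, with filled circles for replicate 1, open triangles for replicate 2 and a line through the mean of the 2 arrays. Atg101 reaches its treated level at 6 h, and Ulk1 is highest at 6 h and lower at 12 and 24 h. Map1lc3a and Sqstm1 overlap their untreated arrays at 6 h and lie above them at 12 and 24 h, and Atg9b falls.

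In the conjugation machinery Atg12, Atg7 and Atg3 were called higher at 24 h, and Atg5, Atg16l1, Atg4b and Atg4d were not called at any time. Of the 7 tested members, 1 was called higher at 6 h, 2 at 12 h and 3 at 24 h. Among all genes the shares were 9.06%, 18.1% and 24.6%. Atg12, the ubiquitin-like protein joined to Atg5, had signals of 748.6 and 430.1 at 0 h, 1467.8 and 1305.5 at 6 h, 1813.1 and 1578.6 at 12 h, and 2555.6 and 1787.0 at 24 h. Its untreated arrays were the least alike of any member's at 0 h, and all treated arrays were above both. The log2 change of Atg12 was 1.24 at 6 h (adjusted p = 0.00986), 1.52 at 12 h (adjusted p = 0.00137) and 1.85 ± 0.25 at 24 h (adjusted p = 0.000238). In the fit to all 8 arrays this was the largest rise among the tested members at 12 and 24 h, 3.61-fold at 24 h. At 6 h the call ended with 0 h replicate 2 omitted (0.86, adjusted p = 0.0751) or 6 h replicate 1 omitted (adjusted p = 0.0548). Atg3, the E2-like enzyme that passes LC3 to lipid, gave 1544.5 and 1988.8 at 0 h, 2241.7 and 2198.5 at 6 h, 3125.2 and 2881.8 at 12 h, and 2946.0 and 3838.4 at 24 h. Atg7, the E1-like enzyme of both conjugation steps, gave 179.9 and 188.7 at 0 h, 184.2 and 185.6 at 6 h, 297.2 and 186.2 at 12 h, and 339.3 and 344.1 at 24 h. Atg3 was above its untreated arrays at all 3 times, whereas Atg7 was level at 6 h, split at 12 h and clear of them at 24 h. Atg3 rose by 0.76 at 12 h (adjusted p = 0.0098) and 0.93 ± 0.19 at 24 h (adjusted p = 0.00238), and Atg7 by 0.79 ± 0.20 at 24 h (adjusted p = 0.00739). Atg3 was no longer called at 12 h when 0 h replicate 1 (adjusted p = 0.0849) or 12 h replicate 1 (0.0576) was omitted, and Atg7 was called at 12 h without 12 h replicate 2 (0.61, adjusted p = 0.0472).

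The acceptor Atg5, whose promoter window holds the E-box core without the flanking T, changed by 0.11 at 24 h (95% interval -0.27 to 0.49). Atg16l1, which places the Atg12-Atg5 conjugate on the membrane, changed by 0.09 (-0.33 to 0.50). The proteases that prepare and recycle LC3 and GABARAP proteins were not called at any time: Atg4b changed by 0.47 at 6 h (adjusted p = 0.0727; 0.0447 with the replicate block) and 0.23 at 24 h, and Atg4d by 0.15 and 0.13. Both Atg4b arrays of each treated time exceeded both untreated arrays.

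Among the LC3 and GABARAP proteins, which coat the membrane and hold cargo receptors, 3 of 5 were called higher at 24 h, against 24.6% of all genes. The other 2 were not called at any time. Gabarapl2 gave 1754.6 and 1740.2 at 0 h, 2909.7 and 2390.4 at 6 h, 3765.4 and 3806.2 at 12 h, and 5556.0 and 5727.7 at 24 h. No 2 times overlapped, and each later time was above the earlier ones. Its log2 change was 0.59 at 6 h (adjusted p = 0.0317), 1.10 at 12 h (adjusted p = 0.000601) and 1.67 ± 0.16 at 24 h (adjusted p = 2.56e-05), which is 3.19-fold at 24 h. The 6 h call was lost without either 0 h array (adjusted p = 0.122 and 0.126) or 6 h replicate 1 (0.45, adjusted p = 0.166). Map1lc3b, the LC3 protein widely used to mark autophagosomes, gave 2087.9 and 2193.0 at 0 h, 3027.9 and 2647.3 at 6 h, 3488.6 and 3927.7 at 12 h, and 3818.2 and 5070.0 at 24 h. For Map1lc3a, its close relative, the signals were 571.5 and 652.7 at 0 h, 578.1 and 683.8 at 6 h, 853.5 and 926.6 at 12 h, and 1520.7 and 1637.3 at 24 h. Map1lc3b was above its untreated arrays from 6 h, whereas Map1lc3a overlapped them at 6 h and lay above them from 12 h. Map1lc3b rose by 0.78 at 12 h (adjusted p = 0.00752) and 1.03 ± 0.18 at 24 h (adjusted p = 0.00107), and Map1lc3a by 0.52 at 12 h (adjusted p = 0.0299) and 1.32 ± 0.16 at 24 h (adjusted p = 0.00012). The 12 h call of Map1lc3a was lost without any 1 of the 4 arrays compared (adjusted p from 0.0587 to 0.158), and that of Map1lc3b without 12 h replicate 2 (adjusted p = 0.0532).

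Gabarap and Gabarapl1, relatives of Gabarapl2, did not pass the test. Gabarap gave 5085.8 and 4844.5 at 0 h, 4073.5 and 5187.8 at 6 h, 4658.3 and 5387.3 at 12 h, and 5470.0 and 6309.9 at 24 h. Gabarapl1 gave 1468.4 and 1005.1, then 1422.7 and 1557.9, then 1289.2 and 1270.7, and last 1345.6 and 1238.8. Gabarap was above both untreated arrays at 24 h alone, and Gabarapl1 overlapped its untreated arrays at all times. Their log2 changes at 24 h were 0.24 (95% interval -0.15 to 0.63) and 0.08 (-0.34 to 0.51), and neither interval reached the lower bound of Gabarapl2, 1.32. The difference between these family members was not itself tested.

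All 3 receptors, which tie ubiquitinated cargo to LC3 and GABARAP proteins, were called higher at 24 h, against 24.6% of all genes. Sqstm1, which encodes p62 and is known both as a receptor and as a substrate of autophagy, gave 8315.4 and 7444.0 at 0 h, 8025.7 and 9259.9 at 6 h, 13244.8 and 15468.2 at 12 h, and 16101.6 and 16989.8 at 24 h. Its 6 h arrays overlapped the untreated ones and its 12 and 24 h arrays lay above them. The log2 change of Sqstm1 was 0.13 at 6 h, 0.86 at 12 h (adjusted p = 0.00285) and 1.07 ± 0.16 at 24 h (adjusted p = 0.000489). Nbr1, a receptor that acts with Sqstm1, gave 1933.7 and 1455.9 at 0 h, 2324.3 and 2040.7 at 6 h, 2259.1 and 2336.3 at 12 h, and 3277.4 and 2574.3 at 24 h. Tax1bp1 gave 1230.4 and 1217.8, then 1273.7 and 1242.8, then 1374.1 and 1570.5, and last 1626.4 and 1630.7. Every treated array of both genes exceeded both untreated ones, by a small margin for Tax1bp1 at 6 h. At 24 h Nbr1 rose by 0.78 ± 0.19 (adjusted p = 0.00684) and Tax1bp1 by 0.40 ± 0.15 (adjusted p = 0.0485). The Nbr1 call ended when 0 h replicate 2 (adjusted p = 0.0669) or 24 h replicate 1 (0.0608) was omitted, and a call was gained at 12 h with the replicate block (0.45, adjusted p = 0.0424). The Tax1bp1 call was lost without any 1 array (adjusted p from 0.0564 to 0.143). In limma, 0 of the 3 receptors had an unadjusted p under 0.05 at 6 h.

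Tfeb, the transcription factor that binds the E-box of many autophagy and lysosomal genes, was not called at any time. It gave 223.4 and 172.6 at 0 h, 210.1 and 146.6 at 6 h, 201.4 and 174.4 at 12 h, and 229.9 and 92.1 at 24 h. The 24 h arrays lay on both sides of the untreated ones and were the least alike of any member's at that time. Its log2 change at 24 h was -0.34 (95% interval -1.02 to 0.33), and without 24 h replicate 1 it was -0.88 (adjusted p = 0.0208).

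**Figure D3:**
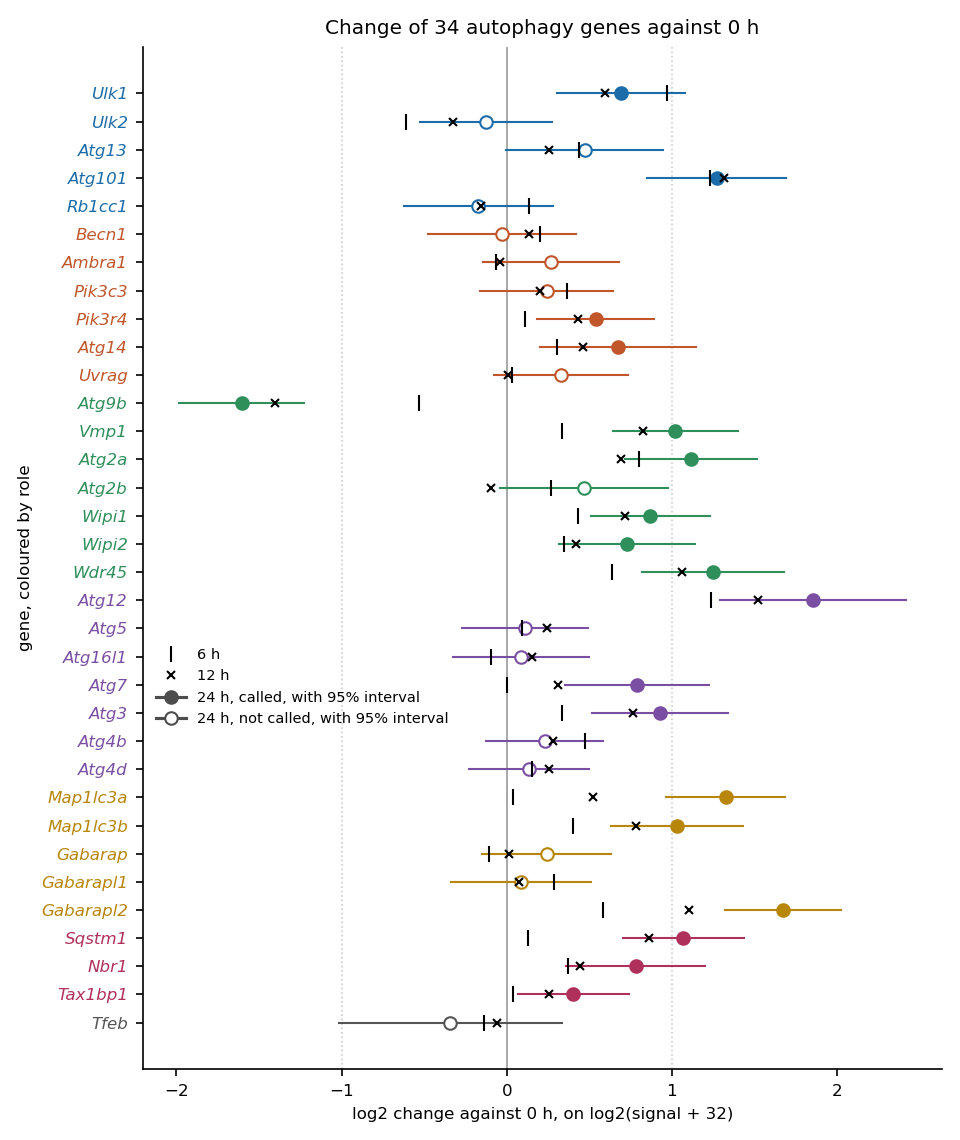
Log2 change against 0 h, on log2(signal + 32), for the 34 tested genes coloured by role, with bars for 6 h, crosses for 12 h, and circles with a 95% interval for 24 h (filled where called). Of the 19 filled circles, 18 lie above 0, Atg12 and Gabarapl2 farthest, and Atg9b alone lies below.

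The times at which a member was called are given first, and they do not by themselves show a difference between times. Ulk1, Atg101, Atg2a, Atg12 and Gabarapl2 were called higher at all 3 times. A further 7, Vmp1, Wipi1, Wdr45, Atg3, Map1lc3a, Map1lc3b and Sqstm1, were called at 12 and 24 h, and Pik3r4, Atg14, Wipi2, Atg7, Nbr1 and Tax1bp1 at 24 h only. No member was called higher at 6 h and not at 24 h. A direct comparison of 24 h with 6 h, added after the data were seen, leaves out the shared 0 h arrays. It uses the same 6 h and 24 h arrays that gave the order above, so it is no separate test of that order. In it 8 of the 34 were called higher (background 12.2%) and 1 lower (14%). These 8 were Map1lc3a (1.28, adjusted p = 0.000343), Gabarapl2 (1.09, adjusted p = 0.000807), Sqstm1 (0.94, adjusted p = 0.00225), Atg7, Vmp1, Map1lc3b, Wdr45 and Atg3, the last 5 between 0.59 and 0.78. Atg9b was the 1 lower (-1.08, adjusted p = 0.0013). Atg101 changed by 0.04 from 6 h to 24 h (95% interval -0.38 to 0.46) and Ulk1 by -0.28 (-0.67 to 0.11), while Ulk2 changed by 0.48 (adjusted p = 0.0742). Of the 6 members called at 24 h only, Atg7 passed this comparison, and Pik3r4 (adjusted p = 0.0727), Tax1bp1 (0.103), Nbr1 (0.142), Wipi2 (0.162) and Atg14 (0.232) did not. Wipi1, called at 12 and 24 h, did not pass it either (0.0716), nor did Atg12 and Atg2a, called at all 3 times. The calls of Atg7, Wdr45, Atg3, Vmp1 and Map1lc3b in this comparison were each lost when certain 6 h or 24 h arrays were left out. That of Atg3 was also lost without either 12 h array, which lies outside the comparison. The count of 8 fell when any 1 of the 6, 12 or 24 h arrays was left out.

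Between neighbouring times few members passed the test. From 6 h to 12 h Sqstm1 rose by 0.73 (adjusted p = 0.0396), 1 of 34 against 2.03% of all genes, and Atg9b fell by 0.87 on the log2 scale (adjusted p = 0.0243), 1 of 34 against 2.14%. From 12 h to 24 h Map1lc3a rose by 0.81 (adjusted p = 0.0183), 1 of 34 against 1.81%, and 0 were called lower against 3.58%; 0 of the 34 had an unadjusted p under 0.05 in that direction in limma. Leaving out any 1 of the 8 arrays ended the Sqstm1 call (adjusted p from 0.0564 to 0.218), any 6 h or 12 h array that of Atg9b (0.0851 to 0.117), and any 12 h or 24 h array that of Map1lc3a (0.0721 to 0.114).

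For 16 members a further probe set passed the filter, 23 such probe sets in all, which show whether the choice of 1 probe set decides a gene's result. These were tested with all 11505 named probe sets that passed. Of 12 that belong to 9 genes called at 24 h, all 12 changed in the same direction at 24 h and 10 were called in it, against 22.3% of the 11505 called higher and 22.1% lower. All 8 of the 12 that had both 0 h arrays above the filter's level were called. The other 4, of Ulk1 and Wipi1, had fewer than 2 there and passed through treated arrays, so their direction was partly fixed by the filter. The other probe sets of Map1lc3b changed by 1.52 (adjusted p = 9.82e-05) and 1.70 (adjusted p = 5.96e-05), and both were also called at 6 h (0.82 and 0.86), as were another of Vmp1 (0.69, adjusted p = 0.0206) and another of Wipi1 (0.73, adjusted p = 0.0167), so whether these 3 genes were called at 6 h depended on the probe set. The other probe set of Atg12 changed by 2.02 (adjusted p = 6.52e-05), that of Wdr45 by 1.78 (adjusted p = 8.66e-05), that of Vmp1 by 1.36 (adjusted p = 0.000101) and that of Nbr1 by 0.78 (adjusted p = 0.00293). The 2 not called were that of Ulk1 (0.13, adjusted p = 0.631) and 1 of 3 of Wipi1 (0.46, adjusted p = 0.114), whose others changed by 0.85 (adjusted p = 0.00177) and 1.26 (adjusted p = 0.00141). The other Ulk1 probe set gave 190.8 and 137.5 at 0 h, 287.9 and 269.1 at 6 h and 174.6 and 186.6 at 24 h, so its 24 h arrays lay between its untreated ones. Its changes of 0.68 at 6 h (adjusted p = 0.0522) and 0.17 at 12 h (adjusted p = 0.546) were not called either. Of 11 further probe sets of genes not called at 24 h, 4 were called: Atg13 (1.29, adjusted p = 0.0044), Atg4b (0.65, adjusted p = 0.00873), Becn1 (0.54, adjusted p = 0.034) and Ulk2 (-0.50, adjusted p = 0.0495). Becn1 had 2 others, at 0.03 and -0.04, and Ulk2 1 other, at -0.21 at 6 h and 0.00 at 24 h, none of them called. The Ulk2 probe set that was called passed the filter with both 0 h arrays and 1 treated array, and the Atg13 probe set with 0 of the 0 h and 4 of the treated arrays, so the filter partly fixed their directions and neither is support for its gene. The Atg13 probe set gave 42.4 and 97.2 at 0 h and 217.7 and 199.0 at 24 h.

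**Figure D4:**
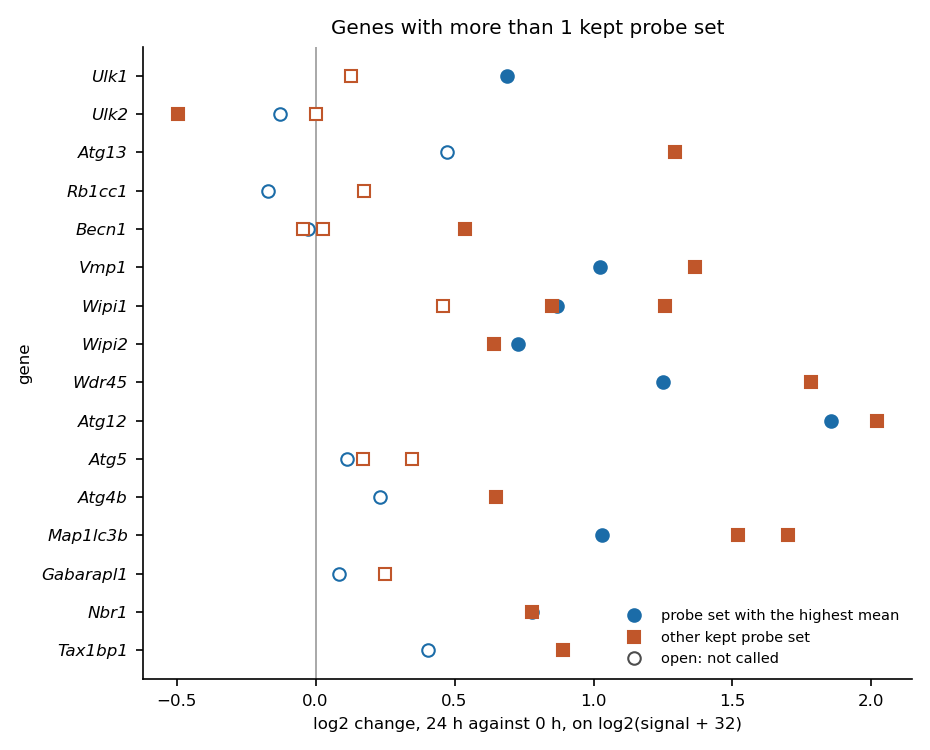
Log2 change at 24 h against 0 h for the 16 genes with more than 1 probe set that passed the filter, with circles for the probe set of highest mean and squares for the others, filled where the adjusted p over all 11505 named probe sets was under 0.05. Squares of Map1lc3b, Wdr45, Vmp1 and Atg12 lie to the right of their circles, and Tax1bp1, called over the 7340 genes, is open here.

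Genes that act around this core machinery were taken from lists of pathway genes that are not members, and their counts at 24 h stand against 24.6% of all genes called higher and 23.5% called lower. Of 25 tested genes of mTORC1 and AMPK signalling, which restrain and start autophagy, 7 (28%) were higher and 3 (12%) lower (median 0.17, all genes 0.04), and the share higher was near that of all genes. Nprl2, a subunit of the GATOR1 complex that turns mTORC1 off, rose from a mean signal of 357.9 to 851.0 (1.19, adjusted p = 0.000278) and Tsc2, another mTORC1 inhibitor, from 445.1 to 1011 (1.13, adjusted p = 0.000254). Lamtor2, a subunit of the lysosomal scaffold of mTORC1, rose by 0.96 (adjusted p = 0.0117), while its partner Lamtor4 fell by 0.47 on the log2 scale (adjusted p = 0.0243), the GTPase Rragc by 0.61 (adjusted p = 0.0104) and the AMPK subunit Prkag2 by 0.55 (adjusted p = 0.0202). With 0 h replicate 1 omitted neither Lamtor2 (0.58, adjusted p = 0.114) nor Rragc (0.0557) was called, and with 24 h replicate 2 omitted Lamtor2 was not called (0.0809). Those of Prkag2 and Lamtor4 were lost without either 0 h array or 24 h replicate 1, Lamtor4 also without 24 h replicate 2 (adjusted p from 0.0618 to 0.124). Of this list, 3 genes were higher without 0 h replicate 2 or 24 h replicate 1, and 0 were lower without 0 h replicate 1 and 1 without either of those 2 arrays. With no filter 4 were higher and 1 lower, and with a pseudocount of 64, the stricter filter or the replicate block 5 were lower.

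Of 22 regulators of the ULK1, VPS34 and phosphoinositide steps, 7 (31.8%) were higher and 7 (31.8%) lower at 24 h, against 24.6% and 23.5% of all genes (median 0.11). Tmem41b, a scramblase that acts with Vmp1, rose by 1.30 (adjusted p = 0.000111), the kinase Stk4 by 1.25 (adjusted p = 0.000197) and the phosphoinositide phosphatase Mtmr14 by 1.18 (adjusted p = 0.000428). Ei24 fell by 1.12 on the log2 scale (adjusted p = 0.000505), the Becn1 binding partner Bcl2l1 by 1.09 (adjusted p = 0.00133) and Wdr45b, the paralog of Wdr45, by 0.92 (adjusted p = 0.00127). Without either 0 h array 4 of the list were higher.

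Of 25 further receptors and adaptors, 8 (32%) were higher and 4 (16%) lower at 24 h, against 24.6% and 23.5% of all genes (median 0.14). Ccpg1, a receptor for endoplasmic reticulum, rose from a mean of 95.75 to 626.7 (2.37, adjusted p = 1.15e-05) and Bnip3, a mitochondrial receptor, from 318.4 to 1378 (2.02, adjusted p = 1.05e-05). The 0 h mean of Ccpg1 lay below the filter's level of 144.7. Ccpg1 therefore passed through treated arrays, and the filter partly fixed its direction. Stbd1, a glycogen receptor, rose by 1.41 (adjusted p = 4.25e-05). It did not pass the stricter filter and its 0 h signal also lay below 144.7, so the same limit holds for Stbd1. Trim28 fell by 1.20 on the log2 scale (adjusted p = 0.0011), the mitochondrial protein Phb2 by 0.72 (adjusted p = 0.00302) and the adaptor Wdfy3 by 0.68 (adjusted p = 0.0145). Wdfy3 was no longer called when 0 h replicate 1 (adjusted p = 0.0828) or 24 h replicate 1 (0.131) was omitted, and without the latter array 2 of the list were lower.

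Of 20 genes of autophagosome transport, tethering and fusion, 12 (60%) were higher and 1 (5%) lower at 24 h, against 24.6% and 23.5% of all genes, with a median of 0.52. Pla2g15, a lysosomal phospholipase, rose by 1.57 (adjusted p = 8.72e-05). It did not pass the stricter filter, and with signals that low a rise of this size puts its 0 h signal below the main filter's level. Pla2g15 therefore passed through treated arrays, and the filter partly fixed its direction. It is counted in the 12. The tethering protein Tecpr1 rose by 1.02 (adjusted p = 0.000974) and the GTPase Rab33b by 0.77 (adjusted p = 0.00398). The SNARE Vamp8 was the 1 that fell, by 0.87 on the log2 scale (adjusted p = 0.001). The count of 12 was 7 without 0 h replicate 1, 6 without either 24 h array and 5 with no filter on low signals.

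Of 16 transcription factors known to act on autophagy genes, 4 (25%) were higher and 4 (25%) lower at 24 h, which is near the 24.6% and 23.5% of all genes (median 0.13). Ddit3, the stress factor CHOP, rose from a mean of 378.3 to 4958 (3.62, adjusted p = 3.21e-06), and Stat3 (0.99, adjusted p = 0.000678) and Cebpb (0.93, adjusted p = 0.00433) also rose. Xbp1 fell by 1.47 on the log2 scale (adjusted p = 0.00108), Usf2, which like Tfeb binds E-boxes, by 1.44 (adjusted p = 0.00022) and E2f1 by 1.37 (adjusted p = 0.00293).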

How the data were processed

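The deposited table holds 1 linear intensity (signal) per probe set and array, summarised by the authors with software not given in the sources used here. A 2% trimmed mean shared by all 8 arrays shows scaling before deposit, and no further scaling was applied. Detection calls were not used here. Of 22690 probe sets, 64 were controls, 20380 had 1 gene in the platform annotation, 691 several and 1555 were not listed. Of those with 1 gene, 20351 matched the RefSeq gene table (GRCm38.p6) by Entrez identifier, and 0 symbols changed. Times and replicate numbers came from the sample titles.

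Signals were tested as log2(signal + 32). The filter required 2 of 8 arrays above 144.7, the median of all values, and each gene was read from the passing probe set of highest mean. limma 3.58.1 (lmFit and eBayes, R 4.3.3) was fitted to all 8 arrays with no covariate (4 residual and 6.37 prior degrees of freedom), with Benjamini-Hochberg adjustment over 7340 genes and calls at an adjusted p under 0.05. With 2 arrays per time, the number of arrays limits the precision. In simulated data for 24 h against 0 h, 100 of 6880 genes were changed. The fit recovered 16.5% of such changes of 0.6 log2 and 60.2% of changes of 1 log2, with 7 false calls. In the data 1806 of 7340 genes were called higher and 1724 lower at 24 h, a far larger share. The recovery and the false calls therefore describe the simulated setting and not this comparison.

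Whether the replicate numbers pair arrays across times is not stated in the titles. The replicate differences of every pair of times correlated above 0.1 (0.125 to 0.382 over genes), which does not settle it. The main fit has no block, so any pairing is left out of its p-values, and a fit with the replicate number as a block was run as an alternative. Alternatives were the pseudocount, the filter, the probe set rule, quantile scaling, median centring, trend and robust eBayes, a 1.5-fold threshold, the 4 arrays compared alone, the replicate block and leaving out each array. Members and pathway lists were chosen with earlier results of these data known. Every member is named; members called against 0 h are given on each array, and of each pathway list up to 3 called genes per direction with the largest change at 24 h.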

Additional observations from a re-analysis of the deposited data

How the results depend on the processing

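Of 102 log2 changes of members against 0 h, 38 were called; 21 of these stayed called under every one of 19 alternatives (13 at 24 h, 7 at 12 h and 1, Atg101, at 6 h), 17 were lost under at least 1, and 0 of the 38 changed sign. With no filter on low signals, 2 members were higher and 0 lower at 6 h against 0 h, 0 higher and 0 lower at 12 h against 6 h, 0 higher at 24 h against 12 h, and 4 higher at 24 h against 6 h. More genes share the adjustment in that setting. With all named probe sets tested, 0 were lower at 6 h and 0 higher at 12 h against 6 h. With only the 4 arrays compared, 0 were lower at 6 h, and 0 higher and 0 lower at 12 h against 6 h. Quantile normalization gave 0 higher at 12 h against 6 h. The stricter filter, and trend and robust eBayes, each gave 2 higher at 24 h against 12 h. With the replicate block, 2 were lower at 6 h and 2 higher at 24 h against 12 h; it ended no call of a member against 0 h, and its gains are given beside the genes. Leaving out 1 array gave 1 to 5 higher and 0 to 1 lower at 6 h, 8 to 12 higher and 1 to 1 lower at 12 h, and 12 to 17 higher and 1 to 2 lower at 24 h. For 12 h against 6 h it gave 0 to 0 higher and 0 to 1 lower, for 24 h against 12 h 0 to 1 higher and 0 to 0 lower, and for 24 h against 6 h 4 to 8 higher and 1 to 1 lower. Apart from fewer arrays or more genes tested, the cause was not tested. A lone array of a time was assumed to vary like the others. With no filter the calls of Atg12 (adjusted p = 0.0606), Atg2a (0.0704), Gabarapl2 (0.101) and Ulk2 (0.135) at 6 h, Ulk1 (0.0695) and Map1lc3a (0.0807) at 12 h, and Atg14 (0.0737) and Tax1bp1 (0.0999) at 24 h were lost. Tax1bp1 was also lost with a pseudocount of 16 (0.0509), and Gabarapl2 at 6 h with only the 4 arrays compared (0.0658). Quantile scaling and median centring moved the median of all genes by at most 0.0445 log2. Signals below the pseudocount, 21.2% to 26.4% of an array, carry little information.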
